A study of Mus musculus with 4 samples.

Results

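Solute carriers are the membrane proteins that move ions, nutrients, metals, transmitters and metabolites across the plasma membrane and across the membranes of organelles. They are numbered in families by sequence and substrate, so that Slc2 holds glucose and fructose carriers and Slc25 the carriers of the mitochondrial inner membrane. In the stomach they are best known from the acid-secreting parietal cell. There an anion exchanger on the basolateral side returns bicarbonate to the blood and takes up the chloride that leaves with the acid, while the proton pump itself belongs to another class of proteins. Enterochromaffin-like cells load histamine, the signal for acid secretion, into vesicles with a vesicular amine transporter.

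The members described here were all array probes with a single annotated gene symbol that began with Slc and a digit, apart from Slc25a23. Of 33012 probes on the array, 296 met this rule, for 289 genes in 50 families and a few neighbours in name, and 149 of them (147 genes, 42 families) had a value on all 4 arrays and could be compared. Of the other 147 probes, 58 had a value on 1 to 3 arrays and 89 on none. The 149 include 4 probes for proteins that are not carriers but are named after one. These are the scaffolds Slc9a3r1 and Slc9a3r2, which tether exchangers to the cell cortex, and Slc4a1ap and Slc7a6os, and they are described apart as accessory proteins. Slc25a23, a calcium-dependent mitochondrial carrier on chromosome 17 that the rule left out, did pass the test (-0.66 ± 0.081, limma adjusted p = 0.0406), so the counts below are not those of every carrier on the array.

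Whole stomachs of male mice on chow were compared between wild-type C57BL/6J and the homozygous congenic strain B6.CAST-17, whose name denotes chromosome 17 material of CAST on the C57BL/6J (B6) background. All animals were food deprived for 4 h before the tissue was frozen. Each strain was represented by 2 arrays, each hybridised with a pool of RNA from 3 animals, so n = 2 pools per strain throughout. This follows the series design, whereas the sample description counts 4 samples for each strain. The labels do not give the age of the mice or the ends of the CAST segment. Values are log2 signals, differences are congenic minus wild type ± SE from limma, and a member is called when its p-value, adjusted over all 13475 probes with 4 values, is below 0.05. A signal depends on the probe as well as on the transcript, so levels were compared between pools of the same probe and never between probes. With pooled RNA the p-values rest on the spread of pools, not of single mice, and a signal from whole tissue cannot tell fewer cells of a type from less RNA per cell.

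The stomach's own defining transcripts were measured: the proton pump subunit Atp4a read between 19.51 and 19.77 on the 4 arrays. Transcripts of neighbouring tissues differed between the strains. Of 12 measured exocrine pancreas markers 10 were called higher in the congenic pools, with a mean log2 signal over the list of 15.74 to 15.80 against 13.95 to 13.97. Of 6 liver markers 2 were called higher (14.33 to 14.38 against 13.38 to 13.45), and of 8 skeletal muscle markers 3 were called lower (12.64 to 12.67 against 13.71 to 13.83). The part of these tissues in the carrier values below was not tested, except where a value is given.

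None of the 149 compared members was called between the strains. In limma 0 passed an adjusted p of 0.05, where 0.475% of all probes did, and 27 had an unadjusted p under 0.05. Those 27 are 18.1% of the members, against 15.8% of all probes. Of them 11 were higher in the congenic pools (7.38% of the members, against 7.12% of all probes) and 16 lower (10.7%, against 8.66%). The lowest adjusted p among members was 0.102, for the anion exchanger Slc4a2. The median difference over the members was -0.00093 and over all probes -0.0020. The pools of the strains did not overlap in 77 members, or 51.7%, which is close to the share of all probes (49.4%). This held for the 37 members with the congenic pools above (24.8%, against 23.4%) and for the 40 with them below (26.8%, against 26.1%). All members have 1 gene symbol. Over the 7907 compared probes with 1 symbol, 6.05% were higher and 9.86% lower at an unadjusted p under 0.05. Of these probes 21.4% had the congenic pools above and 28.9% below, and their median difference was -0.020.

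Differences were small as well as uncalled. None of the 149 differed by more than 1 on the log2 scale, which 153 of all probes (1.14%) did, and the largest was that of Slc16a1, a lactate and pyruvate carrier, at -0.93 ± 0.31 (-0.57 without congenic pool 1 and -1.28 without congenic pool 2). The median size of the difference was 0.15 for the members and 0.15 for all probes, and the median gap between pools of one strain was 0.15 for both. For 132 of the 149 the 95% interval, not adjusted for the number of probes, lay wholly inside a 2-fold difference in either direction. For the other 17 it reached past that size, so these 4 arrays did not bound the difference below 2-fold. The standard error ran from 0.070 to 0.60. The 27 members with an unadjusted p under 0.05 became 13 when either congenic pool was left out, 21 when wild-type pool 1 and 16 when wild-type pool 2 was left out, and 0 were called in each of these limma fits.

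**Figure D1:**
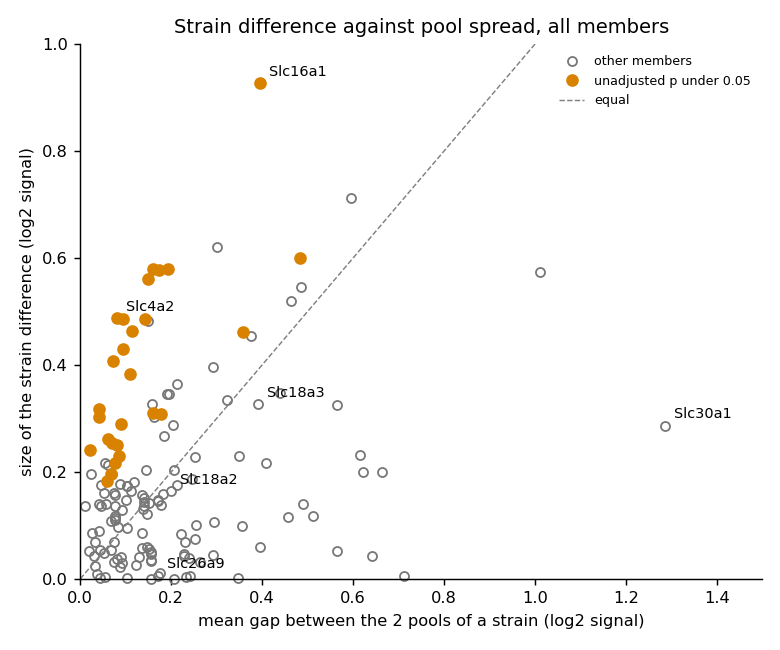
Size of the strain difference (vertical axis, log2 signal) against the mean gap between the 2 pools of one strain (horizontal axis, log2 signal) for the 149 members, with the 27 that had an unadjusted p under 0.05 filled and the dashed line where both are equal. The filled points lie mostly at the left, where pools of one strain differ little, and Slc30a1, with the widest pool gap of 1.29, is far to the right.

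**Figure D2:**
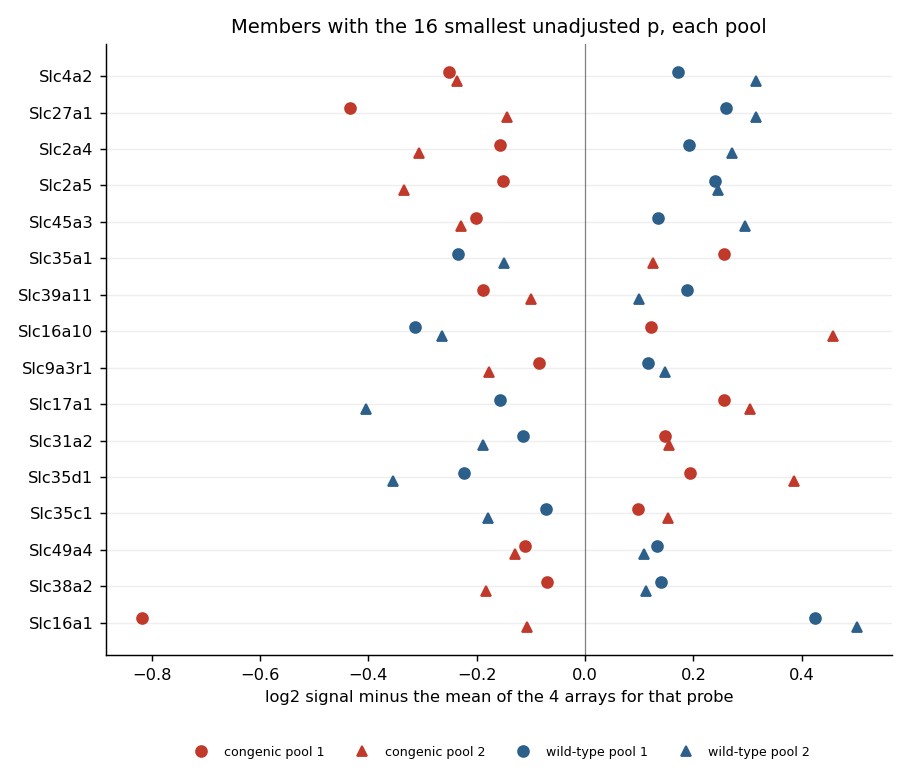
Log2 signal of each pool minus the mean of the 4 arrays (horizontal axis) for the 16 members with the smallest unadjusted p, congenic pools in red and wild-type pools in blue, pool 1 as circles and pool 2 as triangles. The strains do not overlap in any of the 16, and none of the 16 was called after adjustment. Picking members by a small p favours pools that do not overlap, so this separation is no separate result. Over all probes 49.4% did not overlap.

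Of the chloride, proton and bicarbonate exchangers (Slc4, Slc9 and Slc26), 19 had a probe. Of these 4 were measured on all arrays, 5 on some and 10 on none. None of the 4 was called in limma, and 1, Slc4a2, had an unadjusted p under 0.05 (25%, against 15.8% of all probes). Slc4a2 encodes the anion exchanger of the parietal cell's basolateral membrane. It read 16.23 and 16.25 in the congenic pools against 16.65 and 16.80 in the wild-type pools. Both congenic values lay below both wild-type values, by more than the pools of either strain lay apart, and the difference was -0.49 ± 0.079 (95% interval -0.68 to -0.29, limma adjusted p = 0.102). Over the fits that left out each pool in turn it stayed between -0.56 and -0.41, with adjusted p between 0.0884 and 0.412.

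Slc4a4, a sodium-bicarbonate cotransporter, read 12.32 and 12.26 in the congenic and 12.43 and 12.47 in the wild-type pools. Here too the groups did not overlap, but the difference of -0.16 ± 0.11 was small (95% interval -0.44 to 0.12, limma adjusted p = 0.532). Slc9b2, a sodium-proton exchanger, read 12.48 and 12.19 against 12.45 and 12.67, so that congenic pool 1 lay between the wild-type pools (-0.23 ± 0.15, limma adjusted p = 0.497). Slc26a9, a chloride transporter of gastric epithelium, read 13.52 and 13.36 against 13.52 and 13.34. Each strain had 1 higher and 1 lower pool at nearly the same levels, and the difference was 0.0061 ± 0.11 (95% interval -0.27 to 0.28), with a sign that changed without congenic pool 1 and without wild-type pool 2. The median over the 4 exchangers was -0.19, and lay between -0.28 without congenic pool 1 and -0.11 without congenic pool 2.

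Slc4a3, another anion exchanger, had a value on 3 arrays. It read 9.30 and 9.53 in the congenic pools and 11.03 in wild-type pool 1, and wild-type pool 2 was blank. In a fit that allowed 1 blank per probe the difference was -1.61 ± 0.36 with a limma adjusted p of 0.202, resting on a single wild-type array. Slc4a1, the anion exchanger of red cells, had a value on wild-type pool 1 alone (12.18). Slc26a6 likewise read 10.74 on that array only, and Slc26a11 read 10.69 on congenic pool 2 only. Slc26a7, an anion exchanger also known from parietal cells, was blank on all 4.

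The parietal cell list gives the setting of the Slc4a2 value. Of its 9 measured markers 0 were called, and 3 had an unadjusted p under 0.05 in limma, all 3 lower in the congenic pools. These 3, Vegfb, Clic6 and Atp4a, are 33.3% of the 9, against 8.66% of all probes lower and 15.8% in either direction. The mean log2 signal over the 9 was 17.27 in both congenic pools and 17.27 and 17.36 in the wild-type pools. This near-equality rests on the intrinsic factor gene Cblif, also on the chief cell list, which read 20.20 and 20.24 against 19.02 and 20.14, with wild-type pool 1 apart. Without it, a choice made after seeing the data, the mean over the other 8 was 16.90 in both congenic pools and 17.05 and 17.01 in the wild-type pools, with both congenic pools below. Of these 8, Vegfb differed by -0.34 ± 0.069 and the potassium channel Kcnq1 by -0.24 ± 0.13. Atp4a, the catalytic subunit of the proton pump, differed by -0.21 ± 0.079 (limma adjusted p = 0.288), and its partner subunit Atp4b by 0.041 ± 0.075. The carbonic anhydrase Car2, which supplies the bicarbonate, differed by 0.011 ± 0.079. Clic6 differed by -0.26 ± 0.082, Ldhb by -0.078 ± 0.087 and Kcne2 by 0.059 ± 0.077. Over all 9 markers, 4 differences were positive, that of Cblif among them, and 5 negative. Whether the Slc4a2 difference goes with the number of parietal cells was not tested.

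Of 41 pumps, channels, carbonic anhydrases and scaffolds listed as transport partners outside the solute carriers, 28 were measured on all arrays. In limma 0 were called, 3 had an unadjusted p under 0.05 with higher congenic values and 7 with lower, and the median difference was -0.039. These are 35.7% of the 28, against 15.8% of all probes, and the lower ones 25%, against 8.66%. Cftr, a chloride and bicarbonate channel, read 12.09 and 12.05 in the congenic pools and 11.58 and 11.47 in the wild-type pools (0.55 ± 0.14, limma adjusted p = 0.188). The other differences in that direction were those of the lysosomal chloride-proton exchanger Clcn7 (0.55 ± 0.14) and of Clca1 (0.20 ± 0.069). The lower values were those of Ezr (-0.51 ± 0.097), which links the apical membrane of parietal cells to actin, Atp6v1b2 (-0.32 ± 0.11), Clic6 (-0.26 ± 0.082), the potassium channel subunit Kcnj16 (-0.26 ± 0.089), Car9 (-0.26 ± 0.079), the chloride channel Clcn2 (-0.26 ± 0.097) and Atp4a, given above. Ezr and Clcn7 are genes of chromosome 17.

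Among the accessory proteins, Slc9a3r1 binds both exchangers and ezrin. It read 15.71 and 15.62 in the congenic pools against 15.91 and 15.94 in the wild-type pools, with no overlap (-0.26 ± 0.074, limma adjusted p = 0.215). Slc9a3r2, a related scaffold on chromosome 17, read 13.66 and 13.80 against 13.62 and 13.61 (0.12 ± 0.094). Slc7a6os differed by -0.32 ± 0.12 and Slc4a1ap by 0.023 ± 0.12, and in limma 0 of the 4 were called and 2, Slc9a3r1 and Slc7a6os, had an unadjusted p under 0.05. Both were lower in the congenic pools (50% of the 4, against 8.66% of all probes lower and 15.8% in either direction).

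**Figure D3:**
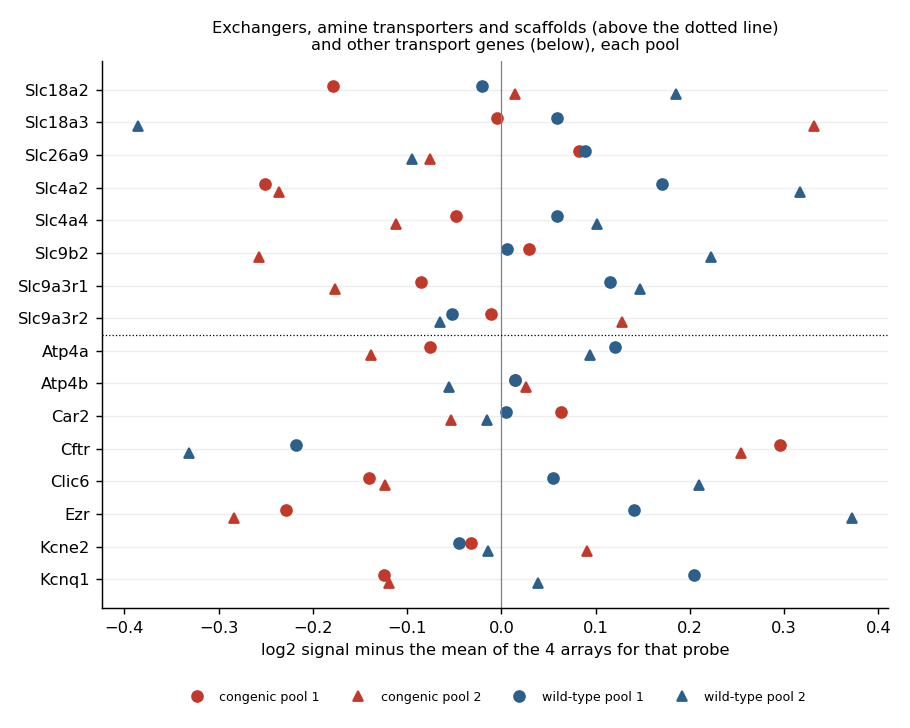
Log2 signal of each pool minus the mean of the 4 arrays (horizontal axis) for the exchangers, the amine transporters and the 2 scaffolds above the dotted line, and 8 other transport genes below it, congenic pools in red and wild-type pools in blue. The strains do not overlap for Slc4a2, Slc4a4, Slc9a3r1 and Slc9a3r2, and overlap for Slc26a9, Slc9b2 and both amine transporters.

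The vesicular amine transporters fill secretory and synaptic vesicles. Slc18a2, which loads histamine and monoamines, read 11.88 and 12.07 in the congenic pools and 12.04 and 12.24 in the wild-type pools. The groups overlapped, and the difference of -0.16 ± 0.15 was no larger than the gap between pools of one strain (95% interval -0.53 to 0.20, limma adjusted p = 0.615). Slc18a3, the acetylcholine transporter of cholinergic nerve endings, read 14.16 and 14.49 against 14.22 and 13.78, with wild-type pool 2 the lowest of the 4 (0.33 ± 0.18, 95% interval -0.11 to 0.77, limma adjusted p = 0.426). Slc18a1 was given on wild-type pool 1 alone (10.62).

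Histidine decarboxylase (Hdc), the enzyme that makes the histamine which Slc18a2 carries, read 12.34 and 12.52 in the congenic pools and 12.63 in both wild-type pools (-0.20 ± 0.12, limma adjusted p = 0.461). Over the 9 measured markers of enteroendocrine and enterochromaffin-like cells the mean log2 signal was 15.84 and 15.86 in the congenic pools against 16.17 and 16.19 in the wild-type pools. In limma 0 of these 9 were called and 4 had an unadjusted p under 0.05, all lower in the congenic pools. That is 44.4% of the 9, against 8.66% of all probes lower and 15.8% in either direction. The 4 were Pcsk1n, Gast, Ghrl and Chgb, and did not include Hdc. Tph1 was blank on every array.

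The mitochondrial carriers exchange metabolites, phosphate, nucleotides and amino acids between cytosol and matrix. Of 35 probes, 23 were measured on all arrays, 7 on some and 5 on none. None was called in limma, and 1 of 23 (4.35%) had an unadjusted p under 0.05, against 15.8% of all probes. Differences were positive for 12 and negative for 11, with a median of 0.027. Non-overlapping pools were seen in 15 of 23 (65.2%, against 49.4% of all probes), 9 higher and 6 lower in the congenic pools.

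Slc25a3, the phosphate carrier that feeds ATP synthesis, had the smallest p of the family. It read 16.61 and 16.71 in the congenic pools and 16.84 and 16.87 in the wild-type pools (-0.20 ± 0.073, limma adjusted p = 0.291). The citrate carrier Slc25a1 read 16.17 and 16.02 against 16.26 in both wild-type pools (-0.16 ± 0.079). Slc25a20, which brings acylcarnitines into the matrix for fatty acid oxidation, differed by -0.21 ± 0.095. In these 3 both congenic pools lay below both wild-type pools.

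Both aspartate-glutamate carriers of the malate-aspartate shuttle differed the other way. Slc25a12 read 15.06 and 14.99 in the congenic pools against 14.90 and 14.79 (0.18 ± 0.081), and Slc25a13 read 13.83 and 13.93 against 13.63 and 13.77 (0.18 ± 0.096). Slc25a22, a glutamate carrier, read 12.05 and 12.16 against 11.47 and 11.94 (0.40 ± 0.19), and Slc25a35 differed by 0.29 ± 0.12. The adjusted p of these 4 lay between 0.318 and 0.414 in limma. In each of the 4 both congenic pools lay above both wild-type pools. Of the 23 intervals, 19 lay inside a 2-fold difference.

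Slc25a36, a pyrimidine nucleotide carrier, was read by 2 probes that disagreed. Probe 892845 read 10.68 and 10.26 in the congenic pools and 9.94 and 9.76 in the wild-type pools (0.62 ± 0.28). Probe 661571 read 10.44 and 10.40 against 10.56 and 11.71 (-0.71 ± 0.38), and without wild-type pool 2, which lay more than 1 above each other array, the difference was -0.14. Neither was called, and no direction is given for this gene. The only other gene with 2 compared probes was the zinc importer Slc39a1, at 0.16 ± 0.095 (probe 553861) and 0.085 ± 0.12 (probe 810533), the latter with a sign that turned without wild-type pool 1.

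**Figure D4:**
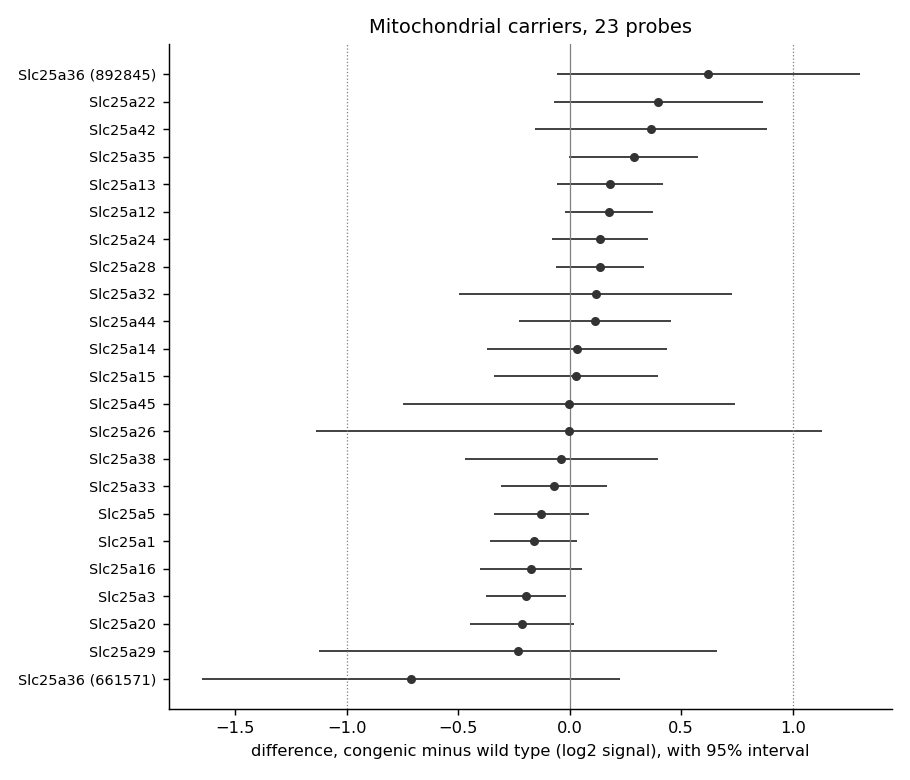
Difference between the strains (horizontal axis, congenic minus wild type, log2 signal) with its 95% interval for the 23 probes of mitochondrial carriers, probe numbers in brackets for Slc25a36, and dotted lines at a 2-fold difference. Points run from -0.71 to 0.62, and both ends are probes of the same gene.

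The substrate classes here and below are made of whole families, so some of their members carry other substrates than the class name says. Sugar carriers (Slc2, Slc5, Slc37, Slc45 and Slc50) gave 0 of 16 called in limma and 5 with an unadjusted p under 0.05, 1 higher and 4 lower in the congenic pools. These 5 are 31.25% of the class, against 15.8% of all probes. By direction 6.25% were higher, against 7.12%, and 25% lower, against 8.66%. The median difference of the class was -0.022. Slc2a4, the insulin-responsive glucose carrier of muscle and fat, read 12.92 and 12.77 in the congenic pools and 13.27 and 13.35 in the wild-type pools. The groups did not overlap (-0.46 ± 0.11, limma adjusted p = 0.177). The fructose carrier Slc2a5 read 12.51 and 12.33 against 12.91 in both wild-type pools (-0.49 ± 0.12, limma adjusted p = 0.183). Slc2a8 differed by -0.49 ± 0.19, and the putative sugar carrier Slc45a3 by -0.43 ± 0.11, with 12.81 and 12.79 against 13.15 and 13.31. Within Slc2 itself 4 of 8 differences were negative and 4 positive. Slc37a3, of the family of sugar-phosphate exchangers, differed by 0.31 ± 0.12. The intestinal sodium-glucose cotransporter Slc5a1 read 11.64 and 11.49 against 11.46 and 11.48 (0.097 ± 0.15).

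The monocarboxylate and fatty acid carriers (Slc16 and Slc27) had 4 of 9 differences above 0.5 in size, which 7.81% of all probes had. In limma 0 were called, 1 was higher and 2 lower at an unadjusted p under 0.05. That is 33.3% of the 9, against 15.8% of all probes. By direction 11.1% were higher, against 7.12%, and 22.2% lower, against 8.66%. Slc16a1 read 9.48 and 10.19 in the congenic pools and 10.72 and 10.80 in the wild-type pools (-0.93 ± 0.31, limma adjusted p = 0.256). Congenic pool 1 was the lowest of the 4 arrays by a wide gap, and the interval of -1.68 to -0.17 is among the 17 that reach a 2-fold difference. Slc16a10, an aromatic amino acid carrier of the same family, read 12.24 and 12.58 against 11.80 and 11.85 (0.58 ± 0.16, limma adjusted p = 0.203). Slc16a3, the lactate exporter, differed by 0.57 ± 0.48 with 9.93 and 10.98 against 9.40 and 10.36, so its pools within each strain lay further apart than the strains did. Slc27a1, a fatty acid uptake protein of muscle and fat, read 12.60 and 12.89 against 13.29 and 13.35 (-0.58 ± 0.13, limma adjusted p = 0.177), while its relatives Slc27a4 and Slc27a2 differed by -0.047 ± 0.13 and 0.042 ± 0.12.

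Slc2a4 and Slc27a1 are both abundant in skeletal muscle, and the lower congenic signal of all 8 measured skeletal muscle markers goes in the same direction as their differences. The median difference over those 8 markers was -1.13, with skeletal actin Acta1 at -1.58 ± 0.070. Of the adipocyte markers only Fabp4 (-0.45 ± 0.087) and Plin1 (0.21 ± 0.29) were measured on all arrays, and Lep and Retn were blank on every array. The part of muscle or fat in the values of both carriers was not tested.

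**Figure D5:**
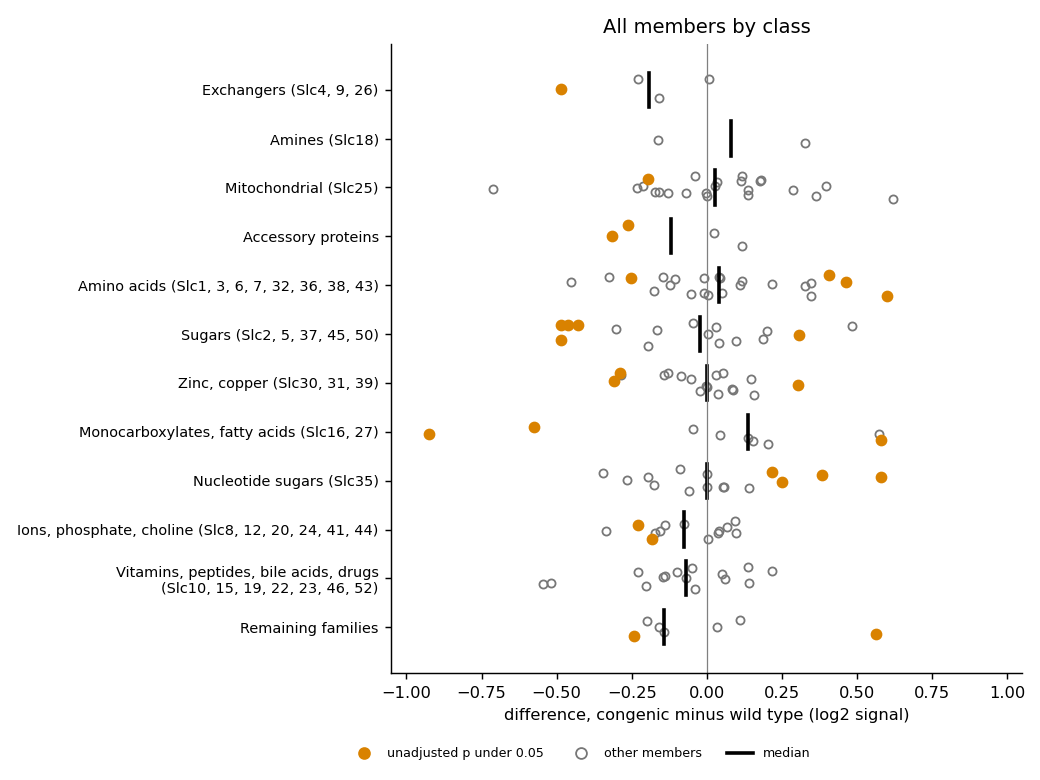
Difference between the strains (horizontal axis, congenic minus wild type, log2 signal) for all 149 members by substrate class, with filled points for an unadjusted p under 0.05, open points for the other members and a bar at the class median. Class medians lie between -0.19 and 0.14, and points fall on both sides of 0 in each class.

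Amino acid carriers (Slc1, Slc3, Slc6, Slc7, Slc32, Slc36, Slc38 and Slc43) gave 0 of 23 called in limma and a median of 0.040. In the congenic pools 3 were higher and 1 lower at an unadjusted p under 0.05. Under that p were 17.39% of the class, against 15.8% of all probes. By direction 13.04% were higher, against 7.12%, and 4.35% lower, against 8.66%. Slc7a1, which takes up arginine and lysine, read 12.003 and 12.38 in the congenic pools and 11.89 and 11.30 in the wild-type pools (0.60 ± 0.24, limma adjusted p = 0.311). The gap between wild-type pools was about as large as the difference. The taurine carrier Slc6a6 read 15.87 and 16.04 against 15.76 and 15.22 (0.46 ± 0.18), with wild-type pool 2 apart from the other arrays, and the difference was 0.19 without that pool and 0.73 without wild-type pool 1. Slc6a2, the noradrenaline carrier of sympathetic nerve endings, read 11.56 and 11.42 against 11.08 in both wild-type pools (0.41 ± 0.16, limma adjusted p = 0.311). Slc38a2, a glutamine and alanine carrier, read 14.19 and 14.08 against 14.41 and 14.38 (-0.25 ± 0.084, limma adjusted p = 0.254). Slc38a5 differed by 0.35 ± 0.24, but wild-type pool 2 (12.96) lay between the congenic pools (12.87 and 13.03) and the sign turned without wild-type pool 1. The subunits of the large neutral amino acid exchanger, Slc3a2 (-0.15 ± 0.12) and Slc7a5 (0.11 ± 0.15), differed little.

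Nucleotide-sugar carriers (Slc35) bring the donors of glycosylation into the Golgi and endoplasmic reticulum, on which mucus glycoproteins depend. In limma 0 of 15 were called, and 4 had an unadjusted p under 0.05, all with higher congenic values. These are 26.7% of the family, against 7.12% of all probes higher and 15.8% in either direction. Lower at that p were 0 of the family, against 8.66% of all probes. Over the whole family 8 differences were positive and 7 negative, the median was 0.000088, and pools did not overlap in 10 members (66.7%, against 49.4% of all probes), 5 in each direction. Slc35a1, the CMP-sialic acid carrier, read 13.65 and 13.52 in the congenic pools and 13.16 and 13.25 in the wild-type pools (0.38 ± 0.10, limma adjusted p = 0.194). Slc35d1, which carries UDP-sugars, read 11.26 and 11.45 against 10.84 and 10.71 (0.58 ± 0.18). Slc35c1, the GDP-fucose carrier, read 14.71 and 14.76 against 14.54 and 14.43 (0.25 ± 0.082), and Slc35f5 differed by 0.22 ± 0.080. In the other direction the UDP-galactose carrier Slc35a2 read 11.34 and 11.10 against 11.49 and 11.64 (-0.35 ± 0.17) and the related Slc35a3 13.06 and 13.02 against 13.24 and 13.19 (-0.18 ± 0.096).

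Zinc and copper carriers (Slc30, Slc31 and Slc39) had small differences: 0 of 18 were called in limma, 1 was higher and 2 lower at an unadjusted p under 0.05, and the median size was 0.085. Under that p were 16.7% of the class, against 15.8% of all probes. By direction 5.56% were higher, against 7.12%, and 11.1% lower, against 8.66%. Slc39a11, a zinc importer, read 16.52 and 16.61 in the congenic pools and 16.90 and 16.81 in the wild-type pools (-0.29 ± 0.076, limma adjusted p = 0.196). Slc39a13 differed by -0.31 ± 0.12. Slc31a2, of the copper carrier family, read 13.51 and 13.52 against 13.25 and 13.17 (0.30 ± 0.092, limma adjusted p = 0.238), and the copper importer Slc31a1 differed by 0.053 ± 0.075. The zinc exporter Slc30a1 could not be placed. It read 11.35 and 9.55 in the congenic pools and 10.35 and 11.12 in the wild-type pools, so that the congenic pools alone spanned the wild-type range (-0.29 ± 0.60, 95% interval -1.76 to 1.19).

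Among the ion, phosphate and choline carriers (Slc8, Slc12, Slc20, Slc24, Slc41 and Slc44) 0 of 13 were called in limma and 2 were lower at an unadjusted p under 0.05, both in the choline transporter-like family. These 2 are 15.4% of the class, against 8.66% of all probes lower and 15.8% in either direction. Slc44a4 read 14.41 and 14.49 in the congenic pools and 14.63 and 14.73 in the wild-type pools (-0.23 ± 0.082), and Slc44a2 differed by -0.18 ± 0.074. The sodium-potassium-chloride cotransporter Slc12a2, which loads epithelial cells with chloride, read 15.35 and 15.37 against 15.31 and 15.27 (0.068 ± 0.071). Its 95% interval of -0.11 to 0.24 is narrow. The carriers of vitamins, peptides, bile acids and drugs (Slc10, Slc15, Slc19, Slc22, Slc23, Slc46 and Slc52) gave no member of 15 past the adjusted or the unadjusted threshold of 0.05 in limma. Over all probes 0.475% passed the adjusted and 15.8% the unadjusted threshold. Of the 7 remaining probes, Slc17a1, of the phosphate and urate carriers, read 11.69 and 11.74 against 11.28 and 11.03 (0.56 ± 0.17, limma adjusted p = 0.232), and Slc49a4 differed by -0.24 ± 0.079.

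Chromosome 17 is the chromosome in which the strains differ by name, and 5 compared members lie on it. In limma 0 of the 5 were called, and 1, Slc44a4, had an unadjusted p under 0.05. That is 20%, against 15.8% of all probes and 34.5% of the named probes of that chromosome. The zinc importer Slc39a7 of the endoplasmic reticulum and Golgi read 16.20 and 16.47 in the congenic pools and 16.41 and 16.26 in the wild-type pools (0.00052 ± 0.11). Slc30a6, a zinc exporter, differed by 0.037 ± 0.11, Slc37a1 by 0.0027 ± 0.12, and the scaffold Slc9a3r2 by 0.12 ± 0.094. The signs of Slc39a7, Slc30a6 and Slc37a1 turned with the pool left out. Pools did not overlap in 2 of the 5 (40%), against 49.4% of all probes and 62.7% of the 383 named probes of that chromosome. With 5 members such a share is coarse, and Slc25a23, which was called, had been left out by rule.

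Blanks carry limited information, since the rule by which the submitters left cells empty is not given in the sources used here. Of the members, 50.3% had a value on all arrays, against 54.9% of all probes with 1 gene symbol. Among the 58 with 1 to 3 values, 26 had more values in the congenic pools and 26 more in the wild-type pools (44.8% each). Of all 7242 probes with 1 to 3 values, 49.3% had more in the congenic and 36.1% more in the wild-type pools. Values in both congenic pools and neither wild-type pool were given for 4 probes (6.90% of the 58), and for 419 of all probes (5.79% of the 7242). These were Slc39a8, a zinc and manganese importer (10.60 and 10.03), the glutamate carrier Slc1a2 (10.40 and 10.39), Slc17a2 (9.999 and 9.82) and the mitochondrial carrier Slc25a21 (8.77 and 8.85). Values in both wild-type pools and neither congenic pool were given for 5 (8.62%), and for 198 of all probes (2.73%). These were Slc47a1, an exporter of organic cations (10.37 and 10.77), the intestinal chloride-bicarbonate exchanger Slc26a3 (10.12 and 9.08), the serotonin carrier Slc6a4 (8.90 and 9.27), Slc6a15 (9.14 and 10.52) and Slc46a2 (9.28 and 9.57). All 18 of these values lay below the median of their array, which was between 12.23 and 12.34, and no test was made of them.

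Of the 14 members with 3 values, 0 were called in the limma fit that allowed a blank and 4 had an unadjusted p under 0.05. These were Slc4a3, described above, the fatty acid and bile acid enzyme Slc27a5 (1.24 ± 0.33), the nucleoside carrier Slc29a3 (1.099 ± 0.38) and the vitamin carrier Slc5a6 (-0.66 ± 0.24). In each of the 4 the wild-type strain was represented by a single array, and the missing spread was taken from the other probes and pools. Of the 15301 probes in that limma fit 13475 had 4 values, and 14.8% of all 15301 had an unadjusted p under 0.05.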

How the data were processed

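Digoxigenin-labelled cRNA from 1 microgram of pooled stomach RNA was hybridised to single-colour chemiluminescent mouse arrays, per the labels' protocols. The deposited table gives 1 log2 signal per probe and array. The log base was inferred from the range of the values. The normalization and the rule for blanks were not given in the sources used here. The arrays share their maximum (21.25) and, by array, 93.3% to 94.8% of their values. No further normalization was applied: the median over the compared probes was 12.82 on each array. The number of arrays limits the precision.

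Probes were named through the platform's annotation table (14411 with 1 symbol, 247 with several, 18354 with none). 1 probe with several symbols included a carrier and was left out. All 149 compared members matched the mouse reference annotation (GRCm38.p6) by gene ID, which was used for chromosomes only, because no genome build is named for the array. Strains were compared across all probes with limma 3.58.1, run under R 4.3.3 (linear model, moderated variances with a trend on the mean signal, two-sided, Benjamini-Hochberg adjustment, 2 residual and 3.971 prior degrees of freedom). The fit was tested on simulated data. Figures were drawn with matplotlib 3.10.9.

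The members, classes and lists were chosen with earlier results of these data known. Members named were those of Slc4, Slc9, Slc26 and Slc18, the 8 mitochondrial carriers, up to 12 higher (11 met it) and up to 12 lower other members with the smallest p under 0.05, chromosome 17 members, the largest difference in each family of at least 5, members with 1 array more than 1 log2 apart from others that agree within 0.5, members with 2 probes, blanks that follow the strain, and partners with p under 0.05. Slc2a8, Slc44a2, the relatives set beside named members and the members with 3 values were named after their values were seen. Lists for chief, mucous, intestinal, forestomach and erythroid cells had 0 of 5, 4, 4, 7 and 1 measured members called in limma, with 2, 0, 2, 2 and 1 at an unadjusted p under 0.05. In that order these are 40%, 0%, 50%, 28.6% and 100%, against 15.8% of all probes. The alternatives tried were median centring, quantile normalization, a filter on dim probes, a block for the replicate number, leaving out each pool, no variance trend, 1 blank allowed, other thresholds, the mean over a gene's probes, and, chosen after seeing the data, the members without accessory proteins and the parietal list without Cblif.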

Additional observations from a re-analysis of the deposited data

How the results depend on the processing

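In limma 0 members were called at an adjusted p of 0.05 under every alternative fit. At 0.1, tried only on the fit used for the results above, 0 were called. The lowest adjusted p over the alternatives was 0.0737, for Slc6a6 without wild-type pool 1. Median centring (65 probes called) and quantile normalization (64) had little to change, since the arrays already shared most of their values and their median over the compared probes. At an unadjusted p under 0.05, 27 members and 2127 of all probes passed. The count over all probes, 64, was 35 with the replicate number as a block, 20 without the variance trend, 110 at an adjusted p of 0.1, and between 15 and 168 with 1 pool left out (15 leaving out congenic pool 1, 27 for congenic pool 2, 168 for wild-type pool 2). Same-numbered pools did not deviate together (r = -0.064 across probes). With 2 pools per strain this cannot settle whether the numbers pair the samples. The block changed no call among members.

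The median over all members lay between -0.052 and 0.015 with 1 pool left out. That of the mitochondrial carriers was -0.069 without dim probes and lay between -0.052 and 0.11 with 1 pool left out. The cause was not tested. The exchanger median lay between -0.28 and -0.11 with 1 pool left out. Of 444 alternative values of 46 named probes, 431 kept their sign and side of the threshold and 13, of 7 probes, changed sign. Slc39a7 was -0.0018 after quantile normalization and -0.0012 after median centring, and lay between -0.13 and 0.13 with 1 pool left out. The same range was -0.086 to 0.098 for Slc26a9, -1.19 to 0.61 for Slc30a1, -0.039 to 0.11 for Slc30a6, -0.13 to 0.14 for Slc37a1, -0.015 to 0.71 for Slc38a5 and -0.078 to 0.25 for probe 810533 of Slc39a1.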
